A study of Mus musculus with 1646 samples.

Results

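The 10 genes described here encode 6 fibroblast growth factor (FGF) ligands, Fgf1, Fgf2, Fgf7, Fgf9, Fgf10 and Fgf18, and the 4 FGF receptor tyrosine kinases, Fgfr1 to Fgfr4. They were picked by name out of 46517 genes in a table of raw read counts from single cells of the mouse colon, through their Ensembl identifiers. The rule used names and no measured value, but the genes were proposed with earlier results of these data known. All 10 had enough counts to be tested in each of 6 comparisons.

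The table held 1646 cells of adult males aged 10 to 20 weeks, on a C57Bl6/J background and without treatment. The study sorted cells on a fluorescent reporter or on antibodies to PDGFRα or PDGFRβ, and against the endothelial protein CD31. RNA was read by SmartSeq2, which has no molecular identifiers. The reporter lines were Acta2GFP (567 cells, 2 plates), Cspg4dsRED (91 cells, 1 plate), PdgfraGFP (13.8% of cells, 2 plates) and PdgfrbGFP (761 cells, 4 plates). Each reporter is driven by the gene in its name, so where cells were sorted on it the line decides which mesenchymal cells could be taken. Elastase was added to the enzyme mix for Acta2GFP tissue only, and lines could be combined in an animal. The labels give each cell 1 of 8 cluster numbers but name no mouse, so the line is the sample here and p-values measure only the spread between lines.

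Clusters 7 (13.5% of cells), 5 (25.8%), 1 (29.3%), 6 (2.73%) and 2 (7.96%) are fibroblasts: Pdgfra averaged 190.8 to 1042 and Col1a1 1590 to 2292 counts per 500000 in them, against at most 16.2 and 535 in clusters 3, 4 and 8. The markers Lum (82.9) and Dcn (273.3) were low in cluster 2, no higher than in some mural clusters. The study placed Tnc-positive, Cd34-negative fibroblasts beneath the surface epithelium, at the crypt apex, and Cd34-positive ones deeper. Tnc was highest in cluster 2 (1972 ± 120.8 counts per 500000, SD over 3 lines) and Cd34 in cluster 7 (1293 ± 246.7, 3 lines), so cluster 2 is called apex fibroblasts. Clusters 4 (8.63% of cells), 3 (8.57%) and 8 (3.40%) are mural cells: pericytes with Kcnj8 at 489 ± 7.32 (2 lines), vascular smooth muscle cells (SMC) with Myh11 at 1856 ± 290.8 (3 lines), and interstitial SMC with Hhip at 1339 in the only line with enough cells. Notch3, a mural marker, stood at 0.229 in interstitial SMC, so that mark of the class was missing there.

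FGF ligands bind heparan sulphate and their receptors together, and the dimerised receptor kinases signal through FRS2 and the RAS-ERK cascade, which Sprouty proteins dampen. Fgf7 and Fgf10 are paracrine ligands of the mesenchyme that act on the epithelial splice form (IIIb) of Fgfr2, and Fgf10 is required for growth of the gut and lung buds. Fgf9 binds mainly the mesenchymal (IIIc) receptor forms and is otherwise best known as an epithelial and mesothelial signal, Fgf1 and Fgf2 lack a classical secretion signal, and Fgf18 is a bone and lung ligand. A count per gene cannot tell the IIIb and IIIc forms apart.

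The results turn on Fgf7 and Fgf9, which were both high in apex fibroblasts, and on Fgf10 and Fgfr2, which were both high in cluster 1. The 250 bases before the RefSeq start site of these 4 genes (GRCm38.p6) are shown so that the pairs can be set side by side. For Fgf9, Fgf10 and Fgfr2 the window lies inside the GENCODE gene span printed below, so it covers 1 start site and may not describe others. Fgf7 lies at chr2:126034408-126034657 (plus strand), Fgf9 at chr14:58072436-58072685 (plus), Fgf10 at chr13:118714449-118714698 (plus) and Fgfr2 at chr7:130266809-130267058 (minus). Capitals mark matches to the letters searched on both strands.
Fgf7: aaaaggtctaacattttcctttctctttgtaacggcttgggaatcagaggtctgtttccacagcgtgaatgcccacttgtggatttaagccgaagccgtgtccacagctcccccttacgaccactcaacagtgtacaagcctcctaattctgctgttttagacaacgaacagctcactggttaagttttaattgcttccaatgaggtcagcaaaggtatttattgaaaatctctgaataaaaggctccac
Fgf9: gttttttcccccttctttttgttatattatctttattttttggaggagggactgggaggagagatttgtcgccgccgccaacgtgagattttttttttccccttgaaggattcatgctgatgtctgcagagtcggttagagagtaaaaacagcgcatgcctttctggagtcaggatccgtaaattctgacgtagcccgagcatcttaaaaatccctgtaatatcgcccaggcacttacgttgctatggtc
Fgf10: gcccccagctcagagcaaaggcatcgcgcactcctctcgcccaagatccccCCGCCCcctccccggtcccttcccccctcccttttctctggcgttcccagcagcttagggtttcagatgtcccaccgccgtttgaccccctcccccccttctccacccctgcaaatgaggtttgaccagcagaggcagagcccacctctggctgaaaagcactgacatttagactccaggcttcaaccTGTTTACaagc
Fgfr2: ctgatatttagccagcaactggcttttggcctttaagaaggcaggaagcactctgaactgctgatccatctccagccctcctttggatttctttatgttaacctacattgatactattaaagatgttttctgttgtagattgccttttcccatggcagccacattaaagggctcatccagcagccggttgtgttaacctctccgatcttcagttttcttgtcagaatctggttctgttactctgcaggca
The letters searched were TATAAA (the core promoter box, in 12.4% of 32851 promoter windows of this length), TGTTTAC (forkhead, 3.17%), CTTTGAT (TCF/LEF, 3.21%), GGGCGG (GC box, 32.7%), TGACGTCA (CRE, 1.55%) and TGACTCA (AP-1, 4.46%). The Fgf10 window held a GC box, read as CCGCCC, at -199 to -194 and a forkhead match at -11 to -5. None of these letters occurred in the Fgf7, Fgf9 and Fgfr2 windows. Those 3 windows had 43.6%, 44.8% and 44% G and C, under the median of 52.4% over all windows, and the Fgf10 window had 61.2%. Windows of Fgf2, Fgf18 and Fgfr4 held 1, 1 and 2 GC boxes, and the 2 windows of Fgfr3 held 3 and 2.

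Values are counts scaled to 500000 per cell, averaged over the cells of a cluster within a line and then over lines with at least 10 of its cells, with the SD over lines. Cells held 47598 to 1494292 counts (median 248628). Tests are edgeR's quasi-likelihood tests on raw counts summed by line, with Benjamini-Hochberg adjustment over all genes tested, and a call is an adjusted p under 0.05. Clusters were drawn from the same counts, so no test is independent of its classes. Markers of cells that the sort should remove were low: summed endothelial markers (6 genes) reached 5.32 to 93.5 counts per 500000, highest in pericytes, immune markers (5 genes) at most 26.6, epithelial markers (5 genes) at most 37.2, glial markers (3 genes) at most 4.46, and both mesothelial markers, Msln and Upk3b, stood at 0 in every line. Ptprc, Cd3e and Cd79a were each under 1 in every line.

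**Figure D1:**
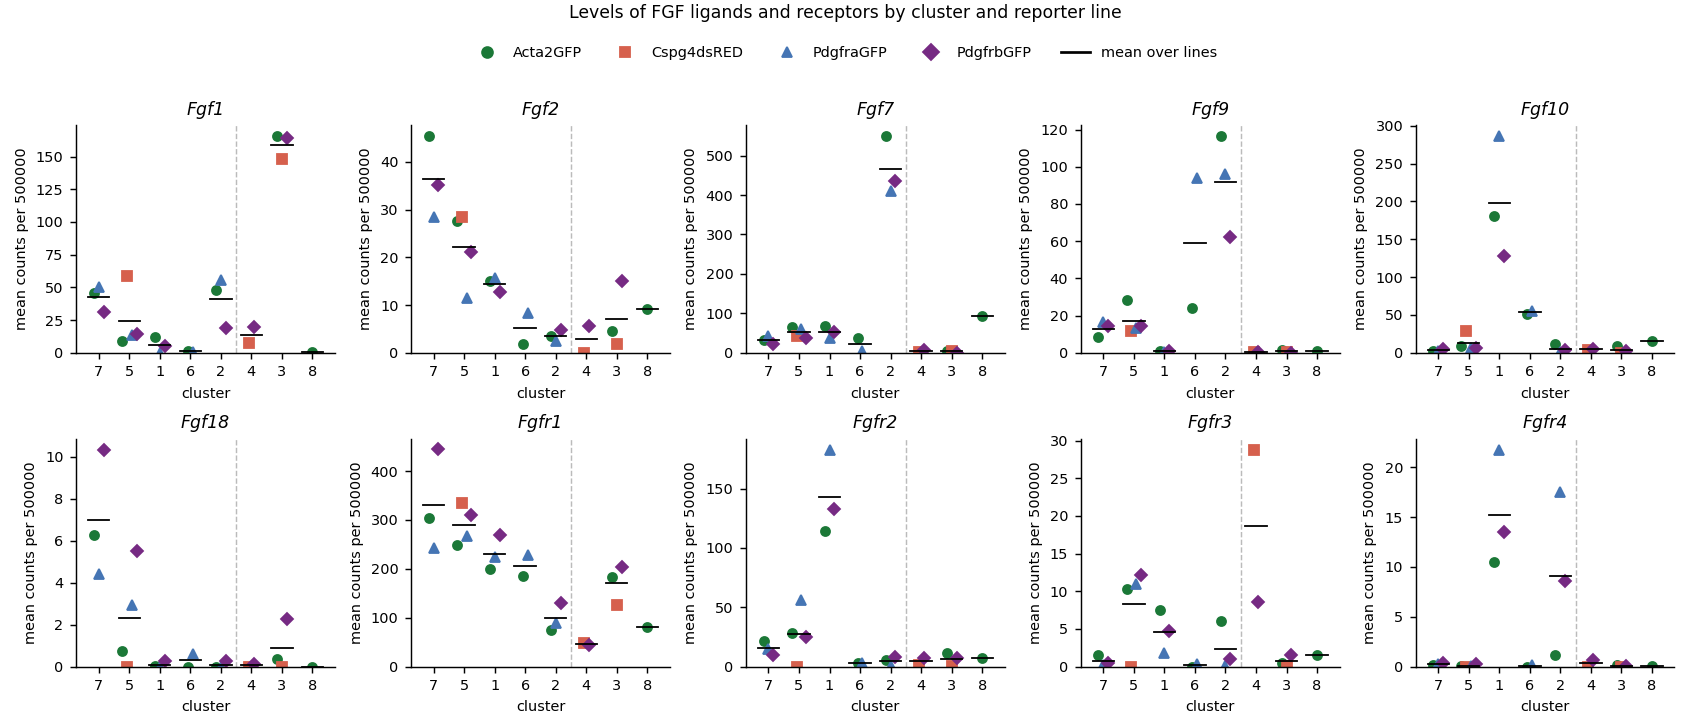
Level of each FGF ligand and receptor (y axis, mean counts per 500000, linear, scaled per gene) in the 8 clusters (x axis, fibroblast clusters 7, 5, 1, 6 and 2 left of the dashed line, mural clusters 4, 3 and 8 right of it). Symbols are reporter lines with at least 10 cells and bars are means over lines: Fgf7 and Fgf9 peak in cluster 2, Fgf10, Fgfr2 and Fgfr4 in cluster 1, Fgf1 in cluster 3, and Fgfr1 declines from cluster 7 to cluster 2.

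Fgf7 (keratinocyte growth factor, 3248 bases of exon on chromosome 2, 126034658 to 126091185, plus strand) was the most abundant ligand per cell in apex fibroblasts. It stood there at 549 counts per 500000 in the Acta2GFP line, 411.5 in PdgfraGFP and 435.8 in PdgfrbGFP, a mean of 465.4 ± 73.5. Every line of cluster 2 was above every line of the other 7 clusters. Interstitial SMC came next at 93.7 in their single line. Next were clusters 1, 5 and 7 at 53.1 ± 14.6 (3 lines), 51.6 ± 13.1 (4 lines) and 33.1 ± 9.98 (3 lines), with overlapping lines, so their order is within the spread. Cluster 6 held 37.7 (Acta2GFP) and 4.54 (PdgfraGFP), and pericytes (4.36 ± 4.39, 2 lines) and vascular SMC (3.31 ± 2.75, 3 lines) were lowest. The pattern repeated by plate: the 5 plates with cluster 2 cells ranged from 222.1 to 527 (median 425.6), above all plates of clusters 1, 5 and 7, which reached at most 80.4.

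Fgf9 (4649 bases of exon on chromosome 14, 58070547 to 58112720, plus strand) was highest in clusters 2 and 6. Cluster 2 held 116.4 (Acta2GFP), 96.1 (PdgfraGFP) and 62.2 (PdgfrbGFP), a mean of 91.6 ± 27.4. Cluster 6 held 24.3 (Acta2GFP, 10 cells) and 93.8 (PdgfraGFP, 26 cells), so the lines of clusters 2 and 6 overlapped. Clusters 5 (16.98 ± 7.79) and 7 (13.01 ± 4.22) were below cluster 2, and cluster 5, with a line at 28.5, overlapped cluster 6. Cluster 1, with Tnc at 542 ± 12.2, stood at 0.814, 0.192 and 1.04, and no line of a mural cluster passed 1.69. Among fibroblasts Fgf9 was thus near 0 in cluster 1 alone.

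Fgf10 (4601 bases of exon on chromosome 13, 118669791 to 118792115, plus strand) was the ligand of cluster 1. Its levels there were 180.9 (Acta2GFP), 285.9 (PdgfraGFP) and 127.3 (PdgfrbGFP), a mean of 198.02 ± 80.7, and the 8 plates ran from 52.7 to 359.4. Cluster 6 came second with 51.1 and 55.8. No line of the other 6 clusters passed 28.2, the value of 13 Cspg4dsRED cells in cluster 5, where the other 3 lines stood at 6.63 to 8.53. Apex fibroblasts held 11.9, 0.329 and 3.84, which overlaps cluster 7 (2.73 to 4.27) and the mural clusters (0.211 to 15.7).

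Fgf1 (acidic FGF, 5463 bases of exon on chromosome 18, 38838673 to 38929472, minus strand) was mainly a vascular SMC transcript. The lines of cluster 3 stood at 165.5 (Acta2GFP), 148.3 (Cspg4dsRED) and 163.9 (PdgfrbGFP), a mean of 159.2 ± 9.53, and 5 plates ranged from 142.7 to 180. All other lines were at or below 58.96. Cluster 7 (42.4 ± 9.76), cluster 2 (40.8 ± 19.6) and cluster 5 (23.98 ± 23.4) overlapped, pericytes held 7.15 and 19.6, and clusters 1, 6 and 8 averaged 5.81, 1.11 and 0.836. Interstitial SMC, with as much Myh11 as vascular SMC, had a total of 12 Fgf1 counts in 52 Acta2GFP cells, where 29 vascular SMC of the same line had 3169.

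Fgf2 (basic FGF, 6782 bases of exon on chromosome 3, 37348346 to 37410108, plus strand) was highest in cluster 7, at 45.4 (Acta2GFP), 28.5 (PdgfraGFP) and 35.1 (PdgfrbGFP), a mean of 36.3 ± 8.50. It stepped down through cluster 5 (22.2 ± 7.85) and cluster 1 (14.4 ± 1.52) to cluster 2 (3.60 ± 1.17), in the order of Cd34. Lines of clusters 7 and 5, and of 5 and 1, overlapped, and those of cluster 2 were below all of these. Mural clusters averaged 2.84 to 9.19. Its exons overlap those of Nudt6 on the opposite strand, and no source says whether strand was used in counting, which leaves reads there uncertain. Fgf18 (1187 bases of exon on chromosome 11, 33117430 to 33147400, minus strand) was sparse. It reached 6.29, 4.39 and 10.3 in cluster 7 and 2.30 ± 2.47 in cluster 5, and averaged at most 0.870 elsewhere.

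Among the receptors, Fgfr1 (9875 bases of exon on chromosome 8, 25513654 to 25575718, plus strand) was the common one. Cluster 7 averaged 330.5 ± 103.98 (304.4, 242.1 and 445.1), cluster 5 290 ± 39.6, cluster 1 230.96 ± 35.04 and cluster 6 206.7 ± 30.9, and each overlapped the next. Apex fibroblasts were below all of these at 75.6 (Acta2GFP), 89.9 (PdgfraGFP) and 130 (PdgfrbGFP). Vascular SMC held 182.7, 126.6 and 203.3, interstitial SMC 81.5, and pericytes 48.4 (Cspg4dsRED) and 43.4 (PdgfrbGFP), lowest of all. Apex fibroblasts were thus the fibroblast cluster with least Fgfr1.

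Fgfr2 (10328 bases of exon on chromosome 7, 130162451 to 133123350, minus strand) was a cluster 1 gene like Fgf10. Its lines stood at 113.9 (Acta2GFP), 182.4 (PdgfraGFP) and 133.02 (PdgfrbGFP), a mean of 143.1 ± 35.3, above every line of the other clusters. Cluster 5 held 27.8, 55.8 and 25.1 and no count in 13 Cspg4dsRED cells, cluster 7 averaged 15.3 ± 5.998, and the remaining clusters 2.96 to 7.47, apex fibroblasts among them at 4.59 ± 3.61. The annotated Fgfr2 exons overlap Ctbp2 on the same strand, so reads there cannot be assigned to either gene.

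The other receptors were rare. Fgfr4 (3542 bases of exon on chromosome 13, 55152640 to 55168759, plus strand) held 10.5, 21.7 and 13.6 in cluster 1 and 1.16, 17.5 and 8.61 in cluster 2, and averaged at most 0.319 in the other 6 clusters, so the lines of clusters 1 and 2 overlapped. Fgfr3 (7158 bases of exon on chromosome 5, 33721674 to 33737068, plus strand) held 28.7 and 8.58 in pericytes and averaged 8.36 ± 5.63 in cluster 5 and 4.65 ± 2.89 in cluster 1. The top 10% of cells carried 98.9% of the level of Fgfr4 in cluster 1 and of Fgfr3 in pericytes, so these means rest on few cells. Fgfr3 exons overlap those of G630022F23Rik on the opposite strand.

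Counts of single genes can be compared only per length. Per kilobase of exon, the 6 ligands summed to 172.2 counts per 500000 in apex fibroblasts, of which Fgf7 made up 83.2% and Fgf9 11.4%. Cluster 1 followed at 62.8, of which Fgf10 made up 68.5% and Fgf7 26.03%. Vascular SMC (32.9, 88.5% Fgf1), interstitial SMC (33.99, 84.9% Fgf7), cluster 7 (32.7, 31.1% Fgf7), cluster 5 (31.9, 49.9% Fgf7) and cluster 6 (32.1, 39.6% Fgf9) had similar sums of different composition. Pericytes had 5.30. The 4 receptors ran otherwise: 42.2 in cluster 1 (55.4% Fgfr1, 32.8% Fgfr2), 35.1 in cluster 7 (95.3% Fgfr1), 33.2 in cluster 5, 21.3 in cluster 6, 18.05 in vascular SMC, 13.3 in apex fibroblasts (74.97% Fgfr1, 19.2% Fgfr4), 9.20 in interstitial SMC and 7.78 in pericytes. Apex fibroblasts therefore held the highest ligand sum and the lowest receptor sum of the 5 fibroblast clusters.

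**Figure D2:**
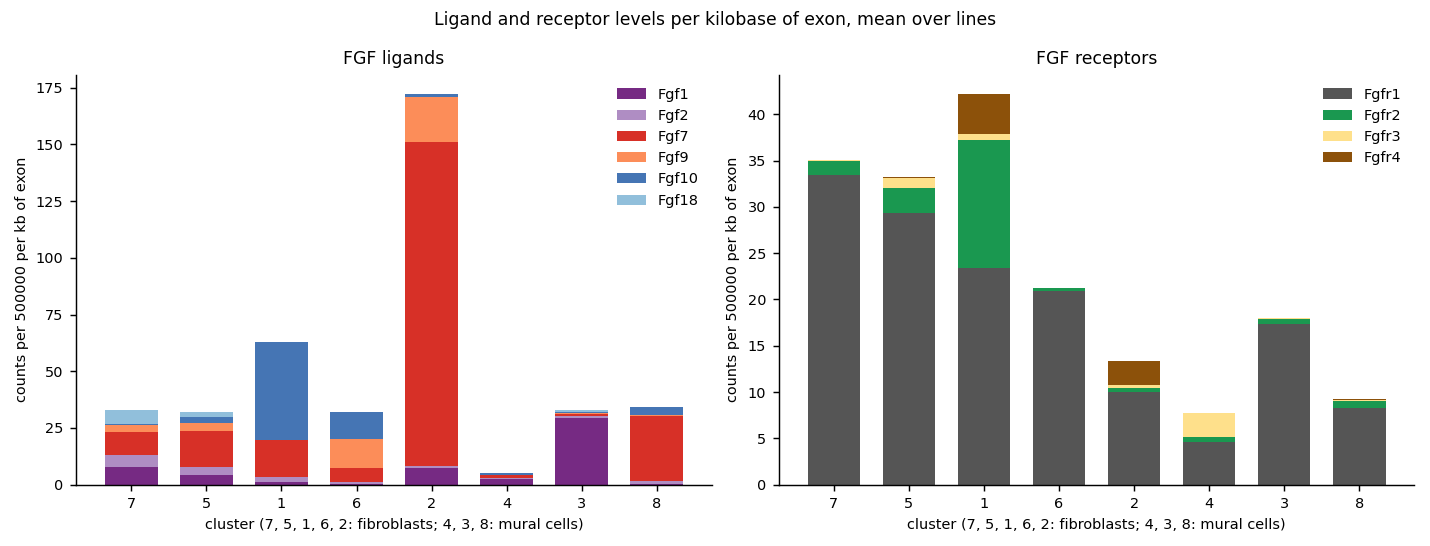
Stacked mean levels per kilobase of exon (y axis, counts per 500000 per kb, linear from 0, mean over lines) of the 6 ligands (left) and 4 receptors (right) in the 8 clusters (x axis). The ligand stack is tallest in cluster 2 at 172.2, mostly Fgf7, while the receptor stack is tallest in cluster 1 at 42.2, where Fgfr2 and Fgfr4 join Fgfr1.

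The share of cells in which a gene is counted depends on depth and on stray reads. Ptprc, which these cells should lack, had a count in 1.88% of cells as deposited and in 0.489% after every cell was thinned to 50000 counts, and Cdh1 in 6.01% and 1.28%. Other markers were counted more widely: Epcam in 17.3% and 6.24% of cells, the endothelial receptor Kdr in 26.9% and 8.93%, and Pecam1, which encodes the CD31 that cells were sorted against, in 70.4% and 40.2%. A share of cells with any count was therefore not read as expression. Low counts were spread over many cells: Fgf9 had a count in 28.8% of cluster 1 cells as deposited, 6.65% after thinning and 0.207% when at least 10 counts per 500000 were asked for. As deposited, that share was 39.8% in PdgfrbGFP cells, 19.5% in Acta2GFP and 16.9% in PdgfraGFP. That stricter threshold, chosen after the values were seen, is used below, and intervals are 95% Clopper-Pearson intervals that cover counting error only.

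Fgf7 passed the threshold in 85.5% (78.3 to 91.04%) of apex fibroblasts, and had any count in 90.8% after thinning. It passed in 28 of 56 interstitial SMC (36.3 to 63.7%), 34.5 to 43.5% of clusters 1, 5 and 7, 11.1% of cluster 6, 5.63% of pericytes and 4.26% of vascular SMC. Fgf9 passed in 54.2% (45.3 to 62.9%) of apex fibroblasts and 31.1% (18.2 to 46.6%) of cluster 6. Fgf10 passed in 67.1% (62.7 to 71.3%) of cluster 1, in 35.6% (21.9 to 51.2%) of cluster 6 and in at most 12.5% elsewhere. Fgf1 passed in 67.4% (58.98 to 75.03%) of vascular SMC, 9.15% of pericytes and 0 of 56 interstitial SMC (interval up to 6.38%). The peaks by share fell in the same clusters as the peaks by level for these 4 ligands.

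Fgfr1 passed in 97.8, 91.3, 88.2 and 77.8% of clusters 7, 5, 1 and 6, 56.5% (47.6 to 65.1%) of apex fibroblasts, 69.5% of vascular SMC, 48.2% of interstitial SMC and 24.6% (17.8 to 32.6%) of pericytes. Fgfr2 passed in 58.8% (54.3 to 63.2%) of cluster 1, 24.2% of cluster 5, 18.8% of cluster 7 and 5.34% (2.18 to 10.7%) of apex fibroblasts. Fgf2 passed in 46.2% of cluster 7, 21.9% of cluster 5 and 12.4% of cluster 1. Fgf18 was rare even at its peak, 11.2% of cluster 7, as were Fgfr4 (8.07% of cluster 1, 4.58% of cluster 2) and Fgfr3 (5.88% of cluster 5, 5.63% of pericytes).

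**Figure D3:**
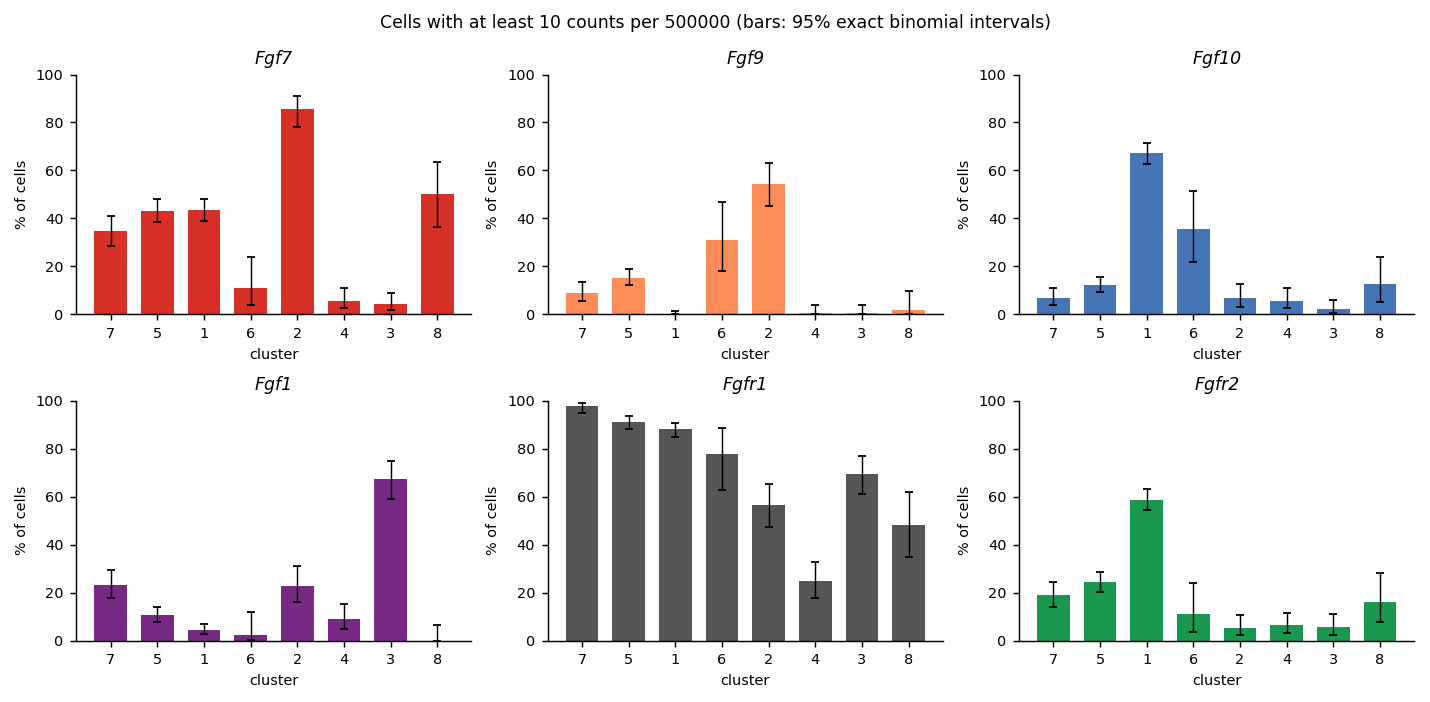
Percentage of cells with at least 10 counts per 500000 (y axis, 0 to 100%) of 4 ligands and 2 receptors in the 8 clusters (x axis), over all cells of a cluster. Error bars are 95% exact binomial intervals: Fgf7 reaches 85.5% and Fgf9 54.2% in cluster 2, Fgf10 67.1% and Fgfr2 58.8% in cluster 1, and Fgf1 67.4% in cluster 3.

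Within their peak clusters the ligands varied from cell to cell. The median apex fibroblast held 365.5 counts per 500000 of Fgf7, the cell at the 90th percentile 982 and the highest 2305, and the top 10% of cells carried 29.4% of the level. Fgf9 there was more uneven, with a median of 32.4, a 90th percentile of 265.2 and 37.9% in the top 10%. In cluster 1 the median was 57.8 for Fgf10 and 38.6 for Fgfr2, with 90th percentiles of 454.2 and 404.2. In vascular SMC the median of Fgf1 was 118.8. Ligands with low means, such as Fgf9 in cluster 7 (median 0, 94.7% in the top 10%), were carried by few cells.

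For pairs of members, the cells that passed for both were set beside the number there would be if the genes were independent. In cluster 1, 41.8% of cells passed for both Fgf10 and Fgfr2, against 39.4% if independent. Fgfr2 passed in 62.3% of cells with Fgf10 and 51.6% of those without it, and their levels were barely related (Spearman's rho 0.103 over cells that share depth and plate, a description). In cluster 2, 59 cells passed for both Fgf7 and Fgf9, where 60.7 would if the genes were independent. In cluster 6, 2 of 45 passed for both Fgf9 and Fgf10 (4.98 if independent), with 14 and 16 cells for each gene. At least 2 of the 6 ligands passed in 61.8% of apex fibroblasts, 38.6% of cluster 7, 37.9% of cluster 1, 24.4% of cluster 6 and 2.82% of pericytes, and 79.6% of pericytes had none. No receptor passed in 41.2% of apex fibroblasts against 2.24% of cluster 7 and 5.59% of cluster 1. With any count after thinning as the measure, the last 3 shares were 37.4%, 0.909% and 3.95%.

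Fibroblasts were first compared with mural cells. Fgf9 and Fgf10 were called higher in fibroblasts and no member was called higher in mural cells, where 6.57% of 19173 genes were called in either direction (4 sums against 3). Against 0.673 ± 0.578 counts per 500000 in mural cells, Fgf9 averaged 22.8 ± 11.7 in fibroblasts, which is 5.16 on the log2 scale (SE 0.79, edgeR adjusted p = 0.00494). Fgf10 averaged 66.5 ± 19.1 and 6.27 ± 5.66, a log2 fold change of 2.87 (SE 0.61, edgeR adjusted p = 0.0221). Fgf9 lost its call without the PdgfrbGFP line (adjusted p = 0.0554), and Fgf10 without the PdgfrbGFP (0.0781) or Cspg4dsRED (0.114) line. Of the 16 genes that respond to tissue dissociation, 3 were called lower in fibroblasts (Zfp36, Btg2 and Atf3, median of the list -0.64). Btg2 lost its call with the line as a block (edgeR adjusted p = 0.0609) and without Acta2GFP or Cspg4dsRED, and Zfp36 without Acta2GFP or PdgfrbGFP. Ano1, a marker of interstitial cells of Cajal, was also called lower (-3.63, edgeR adjusted p = 0.00242), while Kit, the other marker of these cells, was not called. The part of these in the members' differences was not tested.

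The other members had values of either sign that missed the threshold. Fgf7 averaged 96.8 ± 28.7 in fibroblasts and 22.3 ± 32.6 in mural cells, the latter spread by interstitial SMC (log2 fold change 2.81, edgeR adjusted p = 0.137). Fgfr1 averaged 250.5 ± 42.1 and 104.2 ± 16.1 (0.77, adjusted p = 0.132) and Fgfr2 58.8 ± 11.9 and 5.79 ± 4.12 (2.64, adjusted p = 0.0972). Fgf1 leaned to mural cells, 71.2 ± 12.2 against 26.8 ± 16.3 (-1.49, adjusted p = 0.131). Fgf2 (2.17, adjusted p = 0.185), Fgfr4 (5.01, 0.147), Fgf18 (1.71, 0.692) and Fgfr3 (-0.98, 0.797) also missed it. At an unadjusted p under 0.05 there were 8 members, beside 3878 of all 19173 genes tested.

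The second contrast set apex fibroblasts (cluster 2, 3 lines) against the Cd34-positive clusters 1, 5 and 7 (4 lines), called the deeper class, and left out cluster 6. The deeper class is mixed: Tnc stood at 542.4 ± 12.2 in cluster 1, 54.5 ± 44.5 in cluster 5 and 16.9 ± 13.3 in cluster 7. Of the 10 members, 6 were called, 2 higher and 4 lower, beside 7.26% of 15893 genes. Fgf7 was 465.4 ± 73.5 against 44.2 ± 11.8 counts per 500000, a log2 fold change of 3.54 (SE 0.42, edgeR adjusted p = 0.00141), or 11.6-fold. Fgf9 was 91.6 ± 27.4 against 8.34 ± 2.27, a log2 fold change of 3.58 (SE 0.46, edgeR adjusted p = 0.00202). Both kept their call in 10 of 10 alternative fits, with adjusted p up to 0.0280 for Fgf7 and 0.0240 for Fgf9. The alternative with sums of at least 3 cells holds the same 7 sums as the main fit here, so it could not differ. In both, the lowest apex line was above the highest line of the deeper class.

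The 4 members that were lower in apex fibroblasts included both abundant receptors. Fgfr1 was 98.6 ± 28.4 against 270.9 ± 31.9 (log2 fold change -1.39, SE 0.29, edgeR adjusted p = 0.0192) and Fgfr2 4.59 ± 3.61 against 71.9 ± 26.3 (-3.39, SE 0.82, adjusted p = 0.0357). Fgf2 was 3.60 ± 1.17 against 25.2 ± 10.3 (-2.67, SE 0.54, adjusted p = 0.0177) and Fgf10 5.35 ± 5.92 against 79.9 ± 36.7 (-3.53, SE 0.91, adjusted p = 0.0461). The Fgf10 level of the deeper class came mainly from cluster 1 (198.02 ± 80.7). Clusters 5 (12.5 ± 10.5) and 7 (3.31 ± 0.840) overlapped the apex lines, so Fgf10 did not fall steadily from deep to surface. Fgfr2 was also highest in cluster 1 (143.1 ± 35.3), with 27.2 ± 22.8 in cluster 5 and 15.3 ± 5.998 in cluster 7. The 4 lower calls were less stable. Without the Acta2GFP line, all 4 missed the threshold (adjusted p = 0.143, 0.205, 0.155 and 0.0842, in the order given), and only Fgf7 and Fgf9 were left while 1.18% of all genes were called. Without PdgfraGFP, Fgfr1 (0.0690) and Fgf2 (0.0679) were lost, without PdgfrbGFP, Fgfr2 (0.0632) and Fgf10 (0.190), and without Cspg4dsRED, Fgfr2 (0.0629) and Fgf10 (0.0720). With the line as a block, Fgfr2 (0.0514) and Fgf10 (0.0933) were lost and the other 4 stayed. Fgf1 (0.31, adjusted p = 0.875), Fgfr4 (0.35, 0.929), Fgfr3 (-1.30, 0.761) and Fgf18 (-4.69, 0.225) were not called.

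The genes that respond to tissue dissociation (Fos, Jun, Egr1, Atf3 and the like) moved with this contrast. Of the 16, 14 were called higher in apex fibroblasts and none lower, beside 7.26% of all genes called in either direction. Their mean log2(count per 500000 + 1) was 7.33 to 8.28 over the lines of cluster 2, against 3.81 to 5.50 in cluster 1, 5.57 to 6.72 in cluster 5 and 4.77 to 5.93 in cluster 7. Within cluster 2, cells were split at the middle of this score in each line. Fgf7 was higher in the higher-scoring cells of all 3 lines, at 705.5 against 392.6 in Acta2GFP, 438.9 against 385.02 in PdgfraGFP and 458.3 against 413.2 in PdgfrbGFP. Fgf9 was higher there in Acta2GFP only, at 138.8 against 93.998, with 95.8 against 96.4 in PdgfraGFP and 53.8 against 70.7 in PdgfrbGFP. Fgfr1 had no common direction, at 75.5 against 75.7 in Acta2GFP, 70.5 against 108.7 in PdgfraGFP and 158.007 against 102.8 in PdgfrbGFP. Ano1 was called higher (log2 fold change 5.98, edgeR adjusted p = 0.0161, lost without Acta2GFP or PdgfrbGFP). Kit, the other marker of interstitial cells of Cajal, had too few counts to be tested. Ano1 and Kit summed to 98.1 to 220 counts per 500000 in cluster 2 and at most 43.9 in clusters 1, 5 and 7. The sums were 245.3 to 363.8 in vascular SMC and 142.8 to 447.2 in pericytes. Both interstitial SMC markers were called, Rgs10 higher (log2 fold change 3.29, edgeR adjusted p = 0.000301) and Hhip lower (-3.24, 0.0158). Their sum was 253.8 to 355.7 in cluster 2, 28.6 to 134.3 in clusters 7, 5 and 1 and 1809 in interstitial SMC. The part of any of these in the members' differences was not tested.

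**Figure D4:**
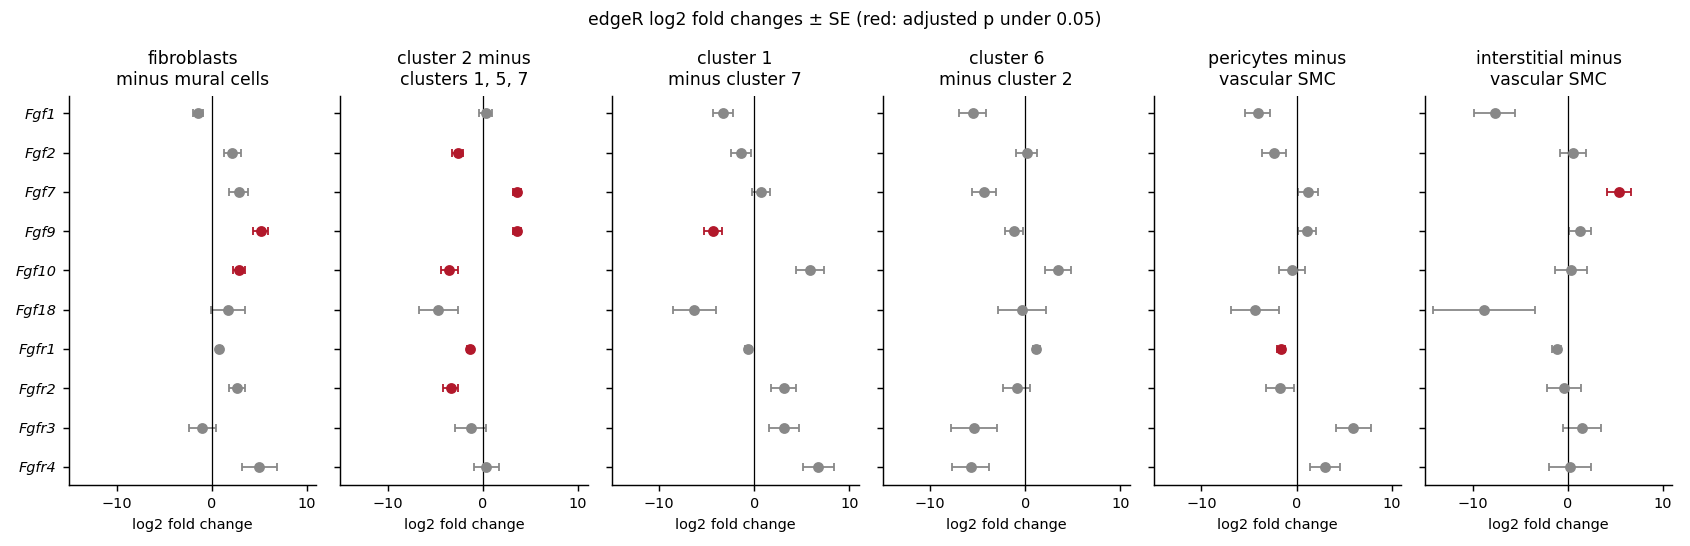
log2 fold change (x axis) of each of the 10 members (rows) in the 6 comparisons (panels) from edgeR's quasi-likelihood test, with bars of 1 SE and red points for an adjusted p under 0.05. Cluster 2 against clusters 1, 5 and 7 has 6 red points, 2 to the right (Fgf7, Fgf9) and 4 to the left, and cluster 6 against cluster 2 has none.

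The next contrasts used 1 fit over 21 sums of the 8 clusters, where the spread is shared. Between the Cd34-positive clusters 1 and 7, 0.488% of 21739 genes were called. Fgf9 was 0.683 ± 0.440 counts per 500000 in cluster 1 and 13.01 ± 4.22 in cluster 7, a log2 fold change of -4.31 (SE 0.93, edgeR adjusted p = 0.0367). It was the only member called. The call was lost without Acta2GFP (adjusted p = 0.449), PdgfraGFP (0.491) or PdgfrbGFP (0.155), each of which leaves 2 lines in both clusters, and with sums of at least 3 cells (0.0543). The other 9 members missed the threshold. Higher in level in cluster 1 were Fgf10, 198.02 ± 80.7 against 3.31 ± 0.840 (5.88, SE 1.47, adjusted p = 0.0950), Fgfr4, 15.3 ± 5.81 against 0.229 ± 0.0896 (6.73, SE 1.62, adjusted p = 0.0749) and Fgfr2, 143.1 ± 35.3 against 15.3 ± 5.998 (3.11, SE 1.32, adjusted p = 0.477). For all 3 the lowest line of cluster 1 was above the highest of cluster 7. Lower in level there were Fgf1, at 12.1, 0.117 and 5.19 against 45.3, 50.4 and 31.5 with no overlap (-3.27, SE 1.04, edgeR adjusted p = 0.255), and Fgfr1, at 230.96 ± 35.04 against 330.5 ± 103.98 with overlap (-0.64, SE 0.32, edgeR adjusted p = 0.580). Fgf18 (-6.29, adjusted p = 0.357), Fgf2 (-1.39, 0.853), Fgf7 (0.73, 1) and Fgfr3 (3.16, 0.580) made up the rest. With the line as a block, 3 members were called: Fgf9 (0.0372), Fgfr4 (0.0455) and Fgf18, lower in cluster 1 (0.0397). DESeq2, limma on means per cell and sums by plate also called Fgf10 (adjusted p = 0.000254, 0.000852 and 0.0238), as did the fits with no filter on low counts (0.0246) and without Cspg4dsRED (0.0133). The apex marker Tnc was called higher in cluster 1, at 542.4 ± 12.2 against 16.9 ± 13.3 (4.61, edgeR adjusted p = 0.0292, lost without Acta2GFP, PdgfraGFP or PdgfrbGFP). Of the 2 pericyte markers, Kcnj8 was also called higher in cluster 1 (5.28, edgeR adjusted p = 0.0248, lost without Acta2GFP or PdgfrbGFP). Kcnj8 and Abcc9 summed to 25.5 to 60.3 counts per 500000 over the lines of cluster 1 and 0.744 to 7.51 in cluster 7, against 877.4 to 1029 in pericytes. The part of these markers in the members' differences was not tested.

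Cluster 6 shares high Pdgfra (607 ± 218.03 counts per 500000, 2 lines) and low Cd34 with cluster 2 but has less Tnc (421.4 ± 96.2). Between clusters 6 and 2, 0.957% of 21739 genes were called by edgeR and none of the 10 members. At an unadjusted p under 0.05 there were 6 members, beside 3144 of all genes tested. Fgf7 was 21.1 ± 23.5 against 465.4 ± 73.5 (log2 fold change -4.38, SE 1.27, edgeR adjusted p = 0.108) and Fgf1 1.11 ± 0.474 against 40.8 ± 19.6 (-5.55, SE 1.46, adjusted p = 0.0775). Fgf10 was 53.5 ± 3.27 against 5.35 ± 5.92 (3.43, SE 1.37, adjusted p = 0.247) and Fgfr1 206.7 ± 30.9 against 98.6 ± 28.4 (1.15, SE 0.35, adjusted p = 0.127). Fgfr4 was 0 and 0.149 in cluster 6 against 1.16, 17.5 and 8.61 (-5.76, SE 1.91, adjusted p = 0.157). For these 5 genes the lines of the clusters did not overlap. Fgfr3, the sixth, was 0 and 0.280 against 6.03, 0.0255 and 0.946, with overlap (-5.42, SE 2.40, adjusted p = 0.301). With the line as a block Fgfr1 was called (adjusted p = 0.0190), and DESeq2 and limma called 4 and 5 members. Fgf9 overlapped between the clusters (-1.21, SE 0.94, adjusted p = 0.621). Of the 16 dissociation genes, 13 were called lower in cluster 6, whose score was 3.95 to 4.25, so these genes moved with the Fgf7 difference. Of the 4 apex markers, 2 were called lower in cluster 6, Il1rl1 (log2 fold change -7.32, edgeR adjusted p = 0.0146) and Ptgs2 (-4.36, 0.0422). Il1rl1 lost its call without Acta2GFP, PdgfraGFP or PdgfrbGFP. Ptgs2 lost it without Acta2GFP or PdgfrbGFP, with sums by plate and with the line as a block (edgeR adjusted p = 0.0539). Mural markers moved too: Abcc9 was called higher in cluster 6 (log2 fold change 5.597, edgeR adjusted p = 0.0391, lost without Acta2GFP, PdgfraGFP or PdgfrbGFP), at 101.4 ± 16.02 against 2.12 ± 1.96. The 2 pericyte markers summed to 197.8 to 211.1 in cluster 6 and 14.9 to 33.7 in cluster 2, and the 3 SMC markers, of which none was called, to 488.7 to 1436 and 101.5 to 311.6. The mural marker Notch3 was under 1 in every line of both. The part of these genes in the members' differences was not tested.

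Among mural cells, 0.819% of 21739 genes were called between pericytes and vascular SMC. Fgfr1 was called, at 48.4 and 43.4 in pericytes against 182.7, 126.6 and 203.3 in vascular SMC (log2 fold change -1.64, SE 0.38, edgeR adjusted p = 0.0452). It lost its call without Acta2GFP (adjusted p = 0.259), Cspg4dsRED (0.0764) or PdgfrbGFP (0.478), with sums of at least 3 cells (0.0726) and with no filter on low counts (0.0758), and kept it with the line as a block (0.00515). Fgf1, at 7.15 and 19.6 against 148.3 to 165.5, missed the threshold (-4.10, SE 1.29, adjusted p = 0.184), as did Fgfr3 (5.96, SE 1.85, adjusted p = 0.179), though the lines did not overlap in either. Of the dissociation genes, 8 of 16 were called lower in pericytes. None of the 4 fibroblast and 6 endothelial markers was called by edgeR, with median log2 fold changes of 1.84 and 2.16. The part of these genes in the members' differences was not tested.

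Interstitial SMC had 1 line with enough cells (52 of Acta2GFP), which is assumed to vary like the other clusters. Against vascular SMC, 1.01% of 21739 genes were called. Fgf7 was called, at 93.7 against 5.39, 4.35 and 0.195 (log2 fold change 5.36, SE 1.24, edgeR adjusted p = 0.0392). It was lost with the line as a block (0.160), without Cspg4dsRED (0.0894) or PdgfrbGFP (0.105) and with sums of at least 3 cells (0.0905). Fgf1, at 0.836 against 148.3 to 165.5, missed the threshold (-7.69, SE 2.18, edgeR adjusted p = 0.111) and was called in 5 of 9 alternatives, among them sums of at least 3 cells (0.0243) and DESeq2 (2.90e-05). Fibroblast markers were also higher in level in interstitial SMC. Col1a1 was called, at 534.6 against 118.9 ± 48.9 (1.97, edgeR adjusted p = 0.00601), and Dcn (399.2 against 171.7 ± 194.1), Lum (101.07 against 33.5 ± 39.8) and Pdgfra (16.2 against 4.47 ± 5.58) were not, with a median of 1.89 over the 4. Their part in the Fgf7 difference was not tested. Per length, Fgf7 was the main ligand of interstitial SMC and Fgf1 that of vascular SMC.

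The wider pathway was read from lists of named genes. Of the 16 other FGF genes in the table, 8 averaged under 1 count per 500000 in every cluster. Among these 8, Fgf8 and Fgf21 averaged 0 in every cluster. The highest was Fgf11, an intracellular FGF-like protein, at 9.12 in interstitial SMC. Of the 5 tested between fibroblasts and mural cells, beside 6.57% of all genes, 1 was called, Fgf12 (log2 fold change 5.64, edgeR adjusted p = 0.0447, 0.140 with the line as a block). It kept its call in 4 of 10 alternatives and lost it without any 1 line and with no filter on low counts, and it stood at no more than 3.02 in any cluster.

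Of 14 co-receptors and binding proteins tested at the apex, 5 were called lower, 1 higher and 8 were not called, where 7.26% of all genes were called, with a median log2 fold change of -0.78 beside 0.0047 over all genes. Flrt3 (-5.77, edgeR adjusted p = 0.0159) and Flrt2 (-5.62, 0.00657), leucine-rich membrane proteins that bind FGF receptors, and Gpc3 (-5.16, 0.0100), a glypican carrying heparan sulphate, fell most. In clusters 7, 5, 1 and 2, Flrt2 stood at 115.2 ± 25.2, 59.1 ± 24.7, 7.39 ± 2.43 and 1.07 ± 1.23 counts per 500000. Gpc6 (-2.11, 0.0278) and Fgfbp3 (-4.98, 0.0485, or 0.0547 with the block) were the other 2. Flrt2, Flrt3 and Gpc3 lost their calls without Acta2GFP only, Gpc6 without Acta2GFP, Cspg4dsRED or PdgfrbGFP, and Fgfbp3, called in 4 of 10 alternatives, without any 1 line. Sdc4, a syndecan, rose (1.75, adjusted p = 0.000985, 10 of 10 alternatives), from 118.4 to 159.4 in clusters 1, 5 and 7 to 496 ± 124.9. Between fibroblasts and mural cells 3 of 16 were called, beside 6.57% of all genes, and all were higher in fibroblasts: Flrt2 (4.76, 0.0102), Flrt3 (4.597, 0.0255, or 0.104 with the block) and the basement membrane proteoglycan Hspg2 (1.83, 0.0143). All 3 lost their calls without Acta2GFP or PdgfrbGFP.

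Among enzymes that build or trim heparan sulphate, 3 of 14 were called lower at the apex and 1 higher (median -0.23), beside 7.26% of all genes. The sulfotransferase Hs3st1 (-5.03, edgeR adjusted p = 0.0139) and the 6-O-endosulfatases Sulf2 (-3.30, 0.00369) and Sulf1 (-3.24, 0.0329, or 0.0732 with the block) were lower, and heparanase, Hpse, which cleaves the chains, was higher (1.33, 0.0255, lost without Acta2GFP or PdgfrbGFP). Sulf2 kept its call in 10 of 10 alternatives, Hs3st1 in 9 and Sulf1 in 6. Clusters 2, 1 and 6 held 267.97 ± 75.4, 238.4 ± 80.4 and 110 ± 77.5 counts per 500000 of Hpse and interstitial SMC 99.2, against 9.94 to 24.9 in cluster 7, cluster 5 and pericytes and 2.02 ± 2.03 in vascular SMC. Hpse was called in cluster 1 against 7 (4.63, 0.0158) and in pericytes against vascular SMC (4.204, 0.0319). Both calls were lost without any of Acta2GFP, PdgfraGFP and PdgfrbGFP. The call in pericytes was also lost in limma and with sums of at least 3 cells. In the single line of interstitial SMC, the log2 fold change of Hpse against vascular SMC was 6.45. Between fibroblasts and mural cells 4 of 14 were called, beside 6.57% of all genes, and all were higher in fibroblasts: Hs3st1 (5.24), Sulf1 (4.499), Sulf2 (3.80) and Ext1 (2.75), with adjusted p of 0.0768 and 0.0637 for the sulfatases with the block.

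Of 19 signal transducers between the receptors and ERK, 18 were not called at the apex (median log2 fold change -0.29), where 7.26% of all genes were called. The list is thus near the share of all genes there. DESeq2 called 4 of the 19 and limma 2, and 5 had an unadjusted p under 0.05. In the other 5 comparisons edgeR called none of the 19, with 0 to 5 at an unadjusted p under 0.05, 0 to 4 called by DESeq2 and 0 to 2 by limma. It called 6.57% of all genes in 1 of these comparisons and 0.488 to 1.01% in the other 4, so a list of this size could be without a call in those. Of 17 feedback regulators and targets of ERK, 6 were called higher in apex fibroblasts, none lower and 11 were not called, beside 7.26% of all genes, with a median of 1.39. Spry4 (2.47, edgeR adjusted p = 0.00404) stood at 71.3 ± 13.3 against 8.42 to 16.6 in clusters 7, 1 and 5, and Spry1 (2.24, 0.00535) at 165.7 ± 71.9 against 11.02 to 59.3. Ier3 (3.002, 0.00132), Fos (1.74) and Egr1 (1.39) are also on the dissociation list, while Spry4, Spry1 and the cyclin Ccnd1 (1.52, 0.0133) are not. Spry4 lost its call without Acta2GFP, Ccnd1 without Acta2GFP or PdgfraGFP and Egr1 without Acta2GFP or PdgfrbGFP, and Spry1, Ier3 and Fos kept theirs in 10 of 10 alternatives. Spry4 stood at 84.3 ± 10.2 in pericytes and 51.7 ± 8.07 in vascular SMC. In the single line of interstitial SMC it stood at 0.278, a log2 fold change of -8.13 against vascular SMC.

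**Figure D5:**
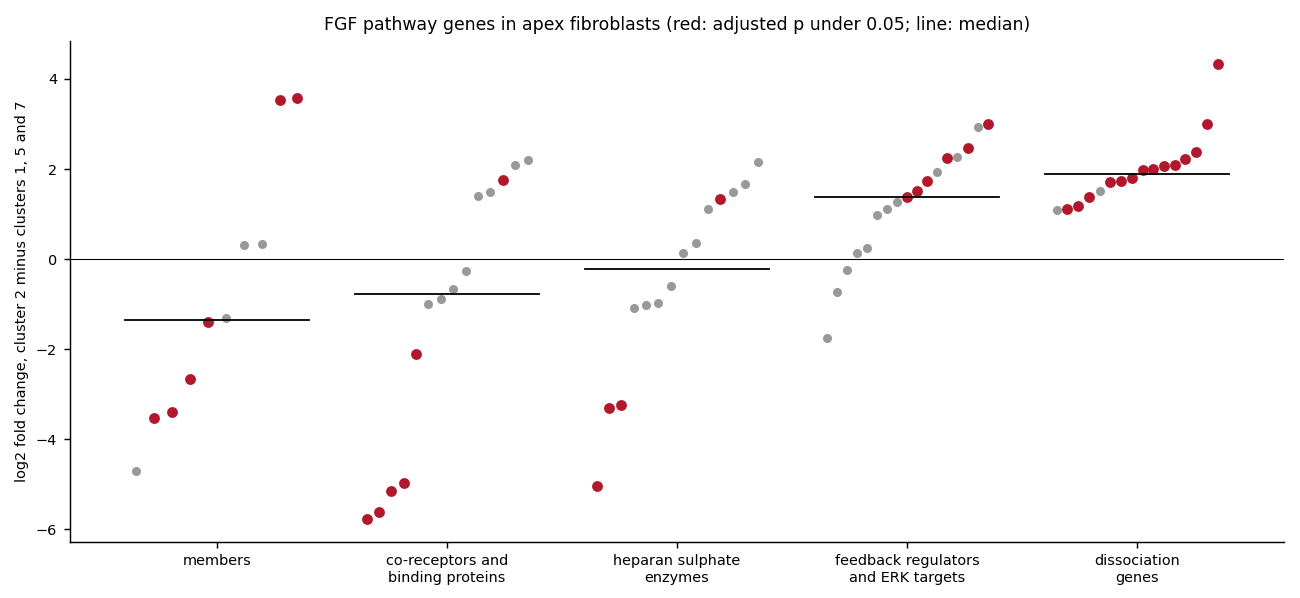
edgeR log2 fold change of cluster 2 against clusters 1, 5 and 7 (y axis) for the members and 4 gene lists (x axis), 1 point a gene, red for an adjusted p under 0.05, with a line at the list's median. Of the 17 feedback regulators and ERK targets (median 1.39), 6 are red, all above 0, 14 of the 16 dissociation genes are red, and the co-receptors have 5 of their 6 red points below it.

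The genes whose pattern was most like each member were found by Pearson's correlation of log2(level + 1) over the 21 cluster and line means, among 8282 genes or 8283 where the member itself was too low. Fgf7 was closest to Bdkrb2 (a bradykinin receptor, r = 0.89), Itm2c and Kcns3. Fgf9 was closest to F3 (tissue factor, r = 0.86), Ptgs2 and Wnt5a, and Fgf10 to Tnfsf13b (r = 0.82), Cxcl12 and Ugcg. Fgfr2 was closest to Wnt2b (r = 0.81), Tep1 and Edil3, Fgfr1 to Mn1 (r = 0.87), Calml4 and Creb5, and Fgf2 to Sema3b (r = 0.91), Hsd3b7 and Atf5. Fgf1 was closest to Vim (r = 0.80), Klf2 and Fam166a, Fgf18 to Lmo2 (r = 0.88), Fgfr3 to Rbbp5 (r = 0.75) and Fgfr4 to Akr1b3 (r = 0.81). Ranked by Spearman's rho instead, 2 of the 3 names stayed for Fgf7, Fgf9 and Fgfr1, 1 for Fgf2, Fgf18, Fgfr2 and Fgfr4 and none for Fgf1, Fgf10 and Fgfr3.

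Among the members themselves the closest pairs over these means, which share cells and lines, were Fgf2 and Fgfr1 (r = 0.77), Fgf2 and Fgf18 (r = 0.64) and Fgf18 and Fgfr1 (r = 0.61). Fgf7 and Fgf9 (r = 0.60) and Fgf10 and Fgfr2 (r = 0.54) came next, and Fgf1 and Fgf10 ran opposite ways (r = -0.68). These values describe the means and carry no test.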

How the data were processed

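Single colon cells were sorted into 384-well plates and read by SmartSeq2 as single reads of 50 bases. The authors trimmed the reads, aligned them to GRCm38 with TopHat2 (through Bowtie1 or Bowtie2) and counted them per gene with featureCounts of the Subread package. The study states the versions of these tools, which are not repeated here. The deposited values were raw counts for 46609 rows, of which 92 were ERCC spike-ins (1.36% of counts) and were left out. The authors had filtered the cells and drawn the clusters, which the labels give as numbers. No doublet caller was run here.

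Counts were summed per class and reporter line with at least 10 cells and tested in edgeR 4.0.16 (R 4.3.3: TMM, filterByExpr, quasi-likelihood F test, Benjamini-Hochberg over all genes tested). Sums held 2202988 to 217742647 counts. Alternatives were DESeq2 1.42.0, limma 3.58.1 on means per cell (pseudocount 1), sums of at least 3 cells, sums by plate, no filter on low counts, each line left out, and the line as a block. At the apex and in fibroblasts against mural cells, sums of at least 3 cells were the same 7 sums as in the main fit, so that alternative repeats it. Deviations of a line from its group means correlated between classes in fibroblasts against mural cells (r = 0.152 to 0.175) and in cluster 1 against 7 (0.121 to 0.170). Levels and shares came from Python 3.11.15, with cells thinned to 50000 counts (11 shallower cells left out). The statistics were tested on simulated data.

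The members, gene lists and tests were chosen with earlier results of these data known. Named genes were all 10 members, list genes that were called, and the 3 genes most like each member. Genes compared for likeness had a level of at least 10 when averaged over the 21 cluster and line means. Promoter windows are from RefSeq (GRCm38.p6), which had one for 8 of the 10 members, all but Fgf1 and Fgfr1. Genes were named from GENCODE, which gave a symbol to 46005 of 46517 identifiers. The 1 called gene of the signal transducer list is not reported here.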

Additional observations from a re-analysis of the deposited data

Results flagged for a closer look

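In cluster 5, 3 values of the Cspg4dsRED line, which rests on 13 cells, stood apart from the other 3 lines. Its Fgf1 level of 58.96 counts per 500000 lay above the others at 9.18 to 14.02, a gap of 0.903 of the group's range, with Fgf1 counted in 4 of its 13 cells. Its Fgf10 level of 28.2 lay above the others at 6.63 to 8.53, a gap of 0.911 of the range. Its Fgfr3 level of 0 lay below the others at 10.3 to 12.2, a gap of 0.841 of the range. Each gap is above Dixon's 95% critical value for 4 samples. In all, 30 groups were examined, and chance alone passes that value in about 1 in 20 groups.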

How the results depend on the processing

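Over the 11 member results that were called, 81 alternatives kept the call, 28 lost it and 0 reversed the direction. Sums of at least 3 cells are counted among those that kept it at the apex and in fibroblasts against mural cells, where they repeat the main fit. Leaving out 1 line gave 2 to 4 members called for the apex, 0 to 3 for cluster 1 against 7, 0 to 3 for fibroblasts against mural cells, 0 to 2 for interstitial and 0 to 1 for pericytes against vascular SMC. The share of tested genes called was then 1.18 to 7.60%, 0.0709 to 0.813%, 1.81 to 5.81%, 0.485 to 1.64% and 0.226 to 0.974% in the same order, and 0.0236 to 2.21% for cluster 6 against 2. For fibroblasts against mural cells (2 members), DESeq2 called 5 members and 15.4% of genes, limma 4 members, plates 6 and 16.1%, and the replicate block 3.08% of genes. For the apex (6 members), DESeq2 called 15.2% of genes, limma 10.9% and plates 12.1%. For cluster 1 against 7 (1 member), DESeq2 called 5 and 2.84%, limma 5 and 1.96%, plates 5 and 2.61%, the replicate block 3 and 0.773%, no filter 2 members and at least 3 cells 0. For cluster 6 against 2 (0 members), DESeq2 called 4 and 8.95%, limma 5 and 4.08%, plates 2 and 3.30%, the block and no filter 1 member each, and at least 3 cells 0.635% of genes. For interstitial SMC (1 member), DESeq2 called 2 and 5.12%, limma 2 and 4.05%, plates 2 and 3.84%, the block 0 members and at least 3 cells 1.92% of genes. For pericytes (1 member), DESeq2 called 3 and 5.59%, limma 2 and 3.24%, plates 2.70% of genes, and at least 3 cells and no filter 0 members. The cause was not tested.

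Values reversed for members that were not called only. Leaving out 1 line, log2 fold changes ran from -0.38 to 1.22 for Fgf1 and -0.099 to 0.68 for Fgfr4 at the apex, -5.91 to 4.12 for Fgf18 and -1.33 to 0.72 for Fgf2 in cluster 6, -2.05 to 1.30 for Fgfr3 in fibroblasts, -0.23 to 0.35 for Fgf10 and -0.16 to 0.24 for Fgfr4 in interstitial SMC, and -2.65 to 1.95 for Fgf10, -2.46 to 2.18 for Fgf7, -1.48 to 2.55 for Fgf9 and -4.26 to 3.84 for Fgfr4 in pericytes. The replicate block gave -0.54 for Fgfr4 at the apex, 2.26 for Fgf18 in cluster 6, 0.45 for Fgfr3 in fibroblasts and 0.29 for Fgfr2 in pericytes. Plates gave 0.98 for Fgf18 in cluster 6, -0.011 for Fgfr1 in fibroblasts and 0.41 for Fgfr2 in interstitial SMC. limma gave 0.23 for Fgf18 in cluster 6, 0.68 for Fgfr2 and -0.069 for Fgfr4 in interstitial SMC, and 0.59 for Fgf10 and -0.12 for Fgf9 in pericytes. At least 3 cells gave -0.25 for Fgf10 and -0.050 for Fgf2 in interstitial SMC. Shares depended on depth: after thinning, 19 shares stayed within the interval of the value as deposited and the others moved. With the median over lines of summed counts in place of the mean per cell, 64 levels stayed within 1 SD and 16 did not, among them the 10 of interstitial SMC, whose single line has no SD. Classes of 1 line share its sort, enzyme mix and plates. At the apex the deviations of a line correlated at 0.0851 to 0.115 between classes, and the replicate block left 4 of the 6 calls.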
